A study of Mus musculus with 25 samples.

Results

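The memory peaks are 731 of the 13527 regions of open chromatin that were counted in fetus/graft-specific CD8+ T cells (TFGS) of C57BL/6 mice. They were chosen by peak lists alone: a region of the count table was taken when it shared at least 1 bp with a reproducible peak of Sensitized cells and with one of each PD1+ post-partum memory subset (S+P C7 as well as S+P C5), and with no peak of the 3 groups that had never been sensitized (Naive, N+P C1, N+P C5). No limit was set on the q-value of a list peak, and only 1 of the 731 would remain at a q-value under 0.05 in the 3 listed groups. Because the lists were called from the same libraries, higher counts in the 3 listed groups than in the 3 unlisted groups are a property of the choice, and they are described here without a test. The S+P C4 libraries and their list took no part in the choice, but the low counts of the unlisted groups did, so S+P C4 against those groups is a description as well.

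The assay was ATAC-seq, in which a transposase cuts open chromatin and the cut fragments are sequenced. TFGS, marked by OVA:Kb tetramers, were sorted from the spleen and pooled lymph nodes of individual female mice, and a group was 3 or 4 libraries. Naive mice (n = 3) were neither grafted nor mated. Naive+Pregnancy mice had a semi-allogeneic pregnancy by 2W-OVA.BALB/c males, and their TFGS were split into C1 (PD1-, n = 3) and C5 (PD1+CD73+, n = 3). Sensitized mice (n = 4) had rejected an allogeneic 2W-OVA.BALB/c skin graft, were not mated, and were taken weeks after the graft. Sensitized+Pregnancy mice had both. Post-partum mice of both kinds were taken within days of delivery, and the TFGS of Sensitized+Pregnancy mice were split into C4 (PD1-, n = 4), C5 (PD1+CD73+, n = 4) and C7 (PD1+CD73-, n = 4). The sort gates thus fix the PD1 and CD73 surface state of each post-partum group. Age was not given in the labels.

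A memory T cell carries a record of earlier activation in its chromatin. Enhancers, which are stretches of DNA that bind transcription factors and act on a gene from a distance, become accessible during the first response and can stay so at rest, so that effector genes respond faster on the next encounter. AP-1 (Fos and Jun family), RUNX and T-box factors (T-bet and Eomes) are known to occupy such enhancers in CD8+ T cells, whereas TCF1 and LEF1 are factors of naive and stem-like cells. Chronic stimulation, marked by PD1, places a further layer of open sites over this record.

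The central 200 bases of 7 memory peaks are shown because the results below turn on these peaks: the one with the smallest adjusted p against Sensitized cells in both PD1+ subsets, and the most accessible one in S+P C4 next to a gene of each of 6 gene lists. Sequences are the forward strand of GRCm39, 5′ to 3′. Capitals mark the strings TGANTCA (AP-1), TGTGGT (RUNX) and AGGTGT (T-box) on either strand, of which RUNX is also read as ACCACA and T-box as ACACCT.
Ptprn2 peak, chr12:116430769-116430968: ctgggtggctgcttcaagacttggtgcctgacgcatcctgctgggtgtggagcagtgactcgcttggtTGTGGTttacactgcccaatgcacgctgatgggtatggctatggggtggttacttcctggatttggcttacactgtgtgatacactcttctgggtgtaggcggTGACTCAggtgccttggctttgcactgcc
Ets1 peak, chr9:32971983-32972182: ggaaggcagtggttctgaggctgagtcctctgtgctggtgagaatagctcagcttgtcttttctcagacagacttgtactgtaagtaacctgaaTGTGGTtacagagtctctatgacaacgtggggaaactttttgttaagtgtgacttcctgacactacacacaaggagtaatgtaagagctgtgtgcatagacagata
Lgals3 peak, chr14:47599264-47599463: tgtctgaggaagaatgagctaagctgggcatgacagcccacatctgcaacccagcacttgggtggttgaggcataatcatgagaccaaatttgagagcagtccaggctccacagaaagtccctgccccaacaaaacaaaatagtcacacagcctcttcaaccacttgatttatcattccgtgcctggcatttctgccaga
Tnfrsf9 peak, chr4:151009284-151009483: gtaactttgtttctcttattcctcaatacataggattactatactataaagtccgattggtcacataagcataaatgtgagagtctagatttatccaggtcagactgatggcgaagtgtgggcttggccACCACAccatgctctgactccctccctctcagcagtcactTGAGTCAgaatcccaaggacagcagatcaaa
Il12rb2 peak, chr6:67376727-67376926: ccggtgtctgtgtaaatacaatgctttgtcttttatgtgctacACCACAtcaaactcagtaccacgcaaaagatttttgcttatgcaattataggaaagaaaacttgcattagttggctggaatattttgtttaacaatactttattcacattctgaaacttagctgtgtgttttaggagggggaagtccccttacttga
Itgb1 peak, chr8:129276315-129276514: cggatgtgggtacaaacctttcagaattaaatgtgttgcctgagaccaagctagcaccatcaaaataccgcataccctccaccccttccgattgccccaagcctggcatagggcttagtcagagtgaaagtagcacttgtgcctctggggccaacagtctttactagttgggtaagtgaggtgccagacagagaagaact
Dusp2 peak, chr2:127160753-127160952: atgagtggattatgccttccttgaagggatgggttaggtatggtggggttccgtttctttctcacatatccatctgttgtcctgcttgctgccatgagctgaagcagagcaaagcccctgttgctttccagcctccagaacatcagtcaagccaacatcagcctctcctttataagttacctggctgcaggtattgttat

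The Ptprn2 and Tnfrsf9 windows each held 1 AP-1 string and 1 RUNX string. The Ets1 and Il12rb2 windows each held 1 RUNX string, and the Lgals3, Itgb1 and Dusp2 windows held none of the 3. A string is a match of letters, not a bound site. Genes are named as the protein-coding gene whose start lies nearest to the middle of the peak (GENCODE vM39), and whether a peak regulates that gene was not measured.

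Depth ran from 2430890 to 25419715 counted reads in peaks per library. Promoter peaks of 5 of the 6 CD8+ T cell marker genes were in the table, whereas none of the promoters of the CD4 or regulatory T cell, B cell, myeloid and NK marker genes was. Of 2 erythroid markers, the Klf1 promoter was open in all libraries (388 to 528 normalised counts). None of these promoters was a memory peak. Sensitized replicates 3 and 4 stood apart from replicates 1 and 2 in the memory peaks, so the main results that rest on the Sensitized group are also given without them. As they were singled out by a low level in these same peaks, leaving them out raises the Sensitized level by choice. Such values show how far a result rests on these libraries and are a description. S+P C4 replicate 1 had the lowest depth of all libraries and the lowest memory-peak level of its group.

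The level of the memory peaks is given for each library as a description. The median normalised read count over the 731 peaks was 260.4, 264 and 257 in the 3 Naive libraries, 219, 224 and 229.8 in N+P C1 and 239, 243 and 250.1 in N+P C5. It was 493, 451, 299 and 299.9 in the 4 Sensitized libraries and 309.6, 371, 457 and 419.6 in S+P C4. It was 397, 453, 437 and 407 in S+P C5, with 433, 478, 495 and 478 in S+P C7. The S+P C4 libraries, which the choice did not use, all lay above the 9 unsensitized libraries, whose low side the choice had fixed. The unlisted groups were not closed at these regions: the median Naive mean over the memory peaks was 261, beside 483 over all peaks of the table.

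An index within each library, in which a size factor largely cancels, gave a like order. The index is the median log2(normalised count + 1) of the memory peaks minus that of the 3245 peaks found in the lists of all 7 groups. Its mean was -1.90 ± 0.03 (SD, n = 3) in Naive, -2.15 ± 0.03 (SD, n = 3) in N+P C1 and -2.02 ± 0.03 (SD, n = 3) in N+P C5. It was -1.32 ± 0.19 (SD, n = 4) in S+P C4, -1.16 ± 0.07 (SD, n = 4) in S+P C5 and -1.04 ± 0.06 (SD, n = 4) in S+P C7. The Sensitized libraries were spread the most: their indices were -0.93, -1.16, -1.69 and -1.69, so that replicates 3 and 4 lay between the unsensitized libraries and the rest of the sensitized ones. The S+P C5 and S+P C7 libraries were spread far less. Counted peak by peak, 88.8% and 75.1% of the memory peaks in Sensitized replicates 1 and 2 were nearer to the S+P C5 mean than to the Naive mean, compared with 35.8% and 42.7% in replicates 3 and 4. The cause of this split was not tested.

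The difference between sensitized and naive cells lay mostly in distal memory peaks. Distal peaks, those with a middle more than 1000 bp from every annotated start of a protein-coding transcript, made up 504 of the 731. Their fitted log2 difference between Sensitized and Naive had a median of 0.81 (quartiles 0.38 and 1.46), and that between S+P C4 and Naive a median of 0.81 (quartiles 0.38 and 1.40). The 227 promoter peaks had medians of 0.10 and 0.24 for the same differences. The Sensitized minus Naive medians became 1.14 in distal and 0.24 in promoter memory peaks without Sensitized replicates 3 and 4. The index of the distal peaks was -0.84, -1.09, -1.73 and -1.72 in the Sensitized libraries and -2.16, -2.09 and -2.06 in the Naive libraries, each measured against distal peaks of all 7 lists. In the promoter peaks the Sensitized indices were -1.19, -1.52, -1.58 and -1.68 and overlapped the Naive indices of -1.61, -1.58 and -1.74. The replicate spread was also larger in the distal peaks: the median SD of log2 counts among Sensitized libraries was 0.49 over distal memory peaks and 0.23 over promoter memory peaks, which includes the split between their replicates.

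**Figure D1:**
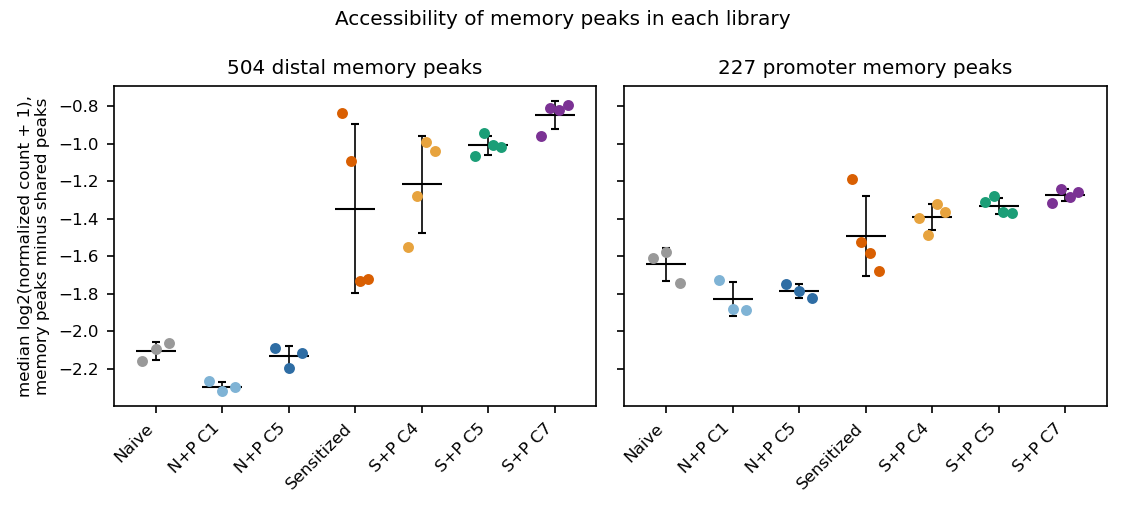
Index of the memory peaks in each of 25 libraries (y axis, median log2(normalised count + 1) of the memory peaks minus that of peaks found in all 7 lists of the same class), for 504 distal and 227 promoter memory peaks. Points are libraries, horizontal lines group means and bars 1 SD. In distal peaks the Sensitized libraries fall into a high pair near -0.84 and -1.09 and a low pair near -1.73 and -1.72, whereas the promoter indices of all libraries lie within -1.88 and -1.19.

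Membership of a list did not always mean a higher count. The fitted Sensitized minus Naive log2 difference ranged from -0.54 to 5.58 over the 731 peaks, exceeded 0.9 in 245 and was below 0 in 82. The range became -0.85 to 6.30 and these counts 341 and 41 without Sensitized replicates 3 and 4. For S+P C4 minus Naive, the same 2 counts were 255 and 39. At the edge of the rule, the peak kept out by the smallest overlap with an unlisted group lay in an intron of Rasa3 (chr8:13710419-13710729), shared 263 bp with the Naive list, and had 284, 230.1 and 269 counts in Naive and 251, 224, 229 and 219 in Sensitized libraries. These 2 groups overlapped in that peak.

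Few of the memory peaks were in the S+P C4 list, which held 3788 peaks beside 8479 to 11384 in the other 6. The list covered 58 of the 731 memory peaks (7.93%, Wilson 95% interval 6.19 to 10.1%), 54 of them distal and 4 at promoters. Peaks found in all 7 lists, which the choice barred, made up 3245 of the 3657 counted peaks that the S+P C4 list covered, so its share of the memory peaks cannot be read against that of all peaks. In counts, the 673 memory peaks absent from the S+P C4 list had a median S+P C4 mean of 375, beside 368 in Sensitized and 263 in Naive. The 58 that were listed had a median S+P C4 mean of 674, beside 652 in Sensitized and 249 in Naive. The Sensitized medians of these 2 sets were 449 and 868 without replicates 3 and 4 of that group. Intervals here and for the strings below cover counting error only.

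Most memory peaks lay away from promoters. Promoters made up 31.1% of them, beside 56.7% of all peaks. Introns held 240, intergenic DNA 231 and exons 33. The median distance to the nearest gene start was 15358 bp, compared with 1595.5 bp over all peaks, and 65 lay over 100 kb away. They were shorter (median 757 bp, compared with 963 bp) and lower in GC (51.0%, compared with 56.8%), but distal memory peaks and other distal peaks had the same median GC of 48.2%. In 723 of the 731, a single stretch was covered by the lists of all 3 groups that the choice required.

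AP-1 and RUNX strings were more frequent in distal memory peaks than in the pool of all other distal peaks, and TCF/LEF strings less frequent. In the central 500 bp, TGANTCA (AP-1) was present in 31.6% of the 504 distal memory peaks (Wilson 95% interval 27.6 to 35.7%) and in 22.3% of 5348 other distal peaks (21.3 to 23.5%). TGTGGT (RUNX) was present in 61.3% (57 to 65.5%), compared with 52.6% (51.2 to 53.9%). AGGTGT (T-box) was present in 37.1% (33 to 41.4%), compared with 31.1% (29.9 to 32.3%), and GGAAGT (ETS) in 50% (45.7 to 54.4%), compared with 44.6% (43.2 to 45.9%). CTTTGA (TCF/LEF) was present in 31.6% (27.6 to 35.7%), compared with 38.0% (36.7 to 39.3%). All strings were read on both strands, and the intervals of these 5 pairs did not overlap, except for that of ETS, which began at 45.7% where the other ended at 45.9%. In the central 300 bp those of T-box overlapped too, at 24.6% (21.0 to 28.6%) and 20.5% (19.5 to 21.6%).

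Other strings did not separate the memory peaks from the pool of other distal peaks. GGGCGGG (SP/KLF) was in 10.7% of distal memory peaks (8.3 to 13.7%) and in 12.1% of other distal peaks (11.3 to 13.0%). TGGAAA (NFAT) was in 38.9% of distal memory peaks and 38.5% of other distal peaks, GGGNNTTCC (NF-kB) in 12.5% and 10.8%, and AGGGGGC (CTCF) in 8.33% and 8.19%. The NR4A string AAAGGTCA, bound by a factor family induced by antigen receptor signals, was in 3.17% of distal memory peaks (1.96 to 5.09%) and in 2.86% of other distal peaks. The 434 distal peaks listed in S+P C5 and S+P C7 but not in Sensitized or unsensitized groups overlapped the memory peaks in each of these intervals: AP-1 was in 31.8% (27.6 to 36.3%), RUNX in 57.4% (52.7 to 61.9%), TCF/LEF in 32.5% (28.3 to 37.0%) and NR4A in 5.99% (4.12 to 8.63%). In the central 300 bp, NR4A was in 2.54% of them and in 2.18% of distal memory peaks. In the 566 distal peaks of all 7 lists, TCF/LEF was in 33.9% (30.1 to 37.9%) and RUNX in 53.5% (49.4 to 57.6%). Each of these intervals also overlapped that of the memory peaks. AP-1 was in 20.3% (17.2 to 23.8%) and SP/KLF in 18.9% (15.9 to 22.3%) of the same 566, and these did not overlap the memory peaks. In the 232 distal peaks listed in all 3 unsensitized groups and in none of the 3 listed ones, AP-1 was in 17.7% (13.3 to 23.1%) and TCF/LEF in 44.0% (37.7 to 50.4%).

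**Figure D2:**
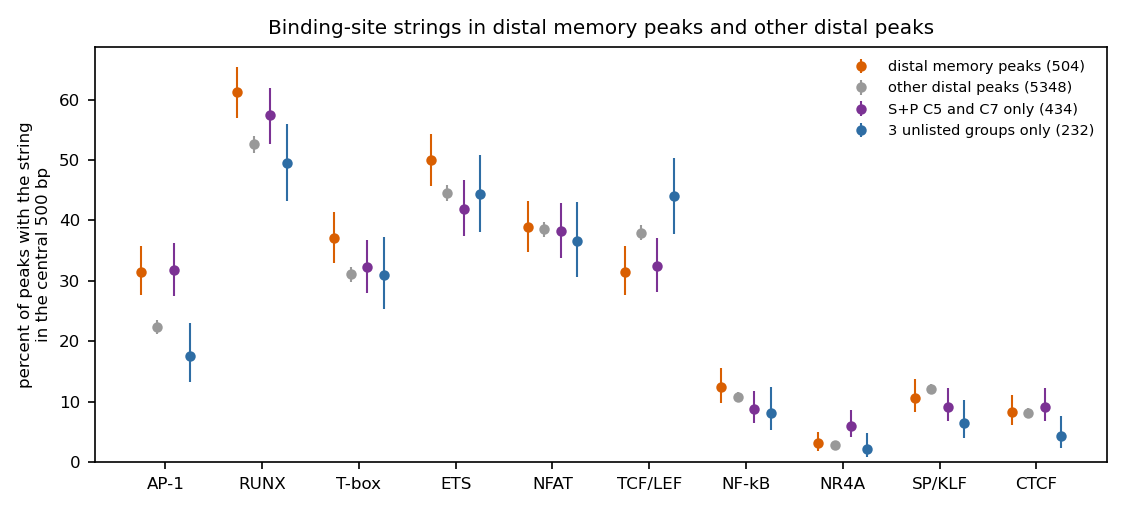
Percent of distal peaks (y axis) whose central 500 bp hold each of 10 short strings on either strand, for distal memory peaks and 3 other sets of distal peaks. Points are shares and bars Wilson 95% intervals over peaks. AP-1 stands at 31.6% in memory peaks and 17.7% in peaks listed only in unsensitized groups, and TCF/LEF at 31.6% and 44.0%, beside 31.8% and 32.5% for the same strings in peaks of S+P C5 and S+P C7 only.

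The 731 peaks lay nearest to 633 genes, and 18 genes had at least 3. Of the 5 genes with the most memory peaks, taken alphabetically among equals, each had 4. Bhlhe40, a transcription factor that shapes cytokine output of T cells, had 4 of its 16 peaks among them, all distal and 12.7 to 124 kb from its start, and their mean level was 100 in Naive and 443 in Sensitized. N4bp1, an inhibitor of NF-kB signalling, had 4 of 7, with means of 73.9 and 498. Cd47, the "don't eat me" ligand, had 4 of 18 (255 and 629), and Rgs3, a regulator of G protein signalling, 4 of 9 (174 and 466). Ets1, a factor of T cell identity, had 4 of 22 (397 and 500), with fitted Sensitized minus Naive log2 differences of -0.10 to 0.88. Leaving out Sensitized replicates 3 and 4 gave Sensitized means of 629.7 for Bhlhe40, 753 for N4bp1, 849 for Cd47, 637 for Rgs3 and 583 for Ets1, and Ets1 differences of -0.06 to 1.23. Xcl1 also had 4 memory peaks.

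Memory peaks lay near genes of 7 of 8 immune gene lists. Memory peaks made up 5.40% of all peaks (8.61% of distal and 2.96% of promoter peaks), which is the background for the shares that follow. Of 811 peaks nearest to a gene of the 8 lists, 77 (9.49%) were memory peaks. Distal peaks made up 82.7% of the 811, beside 43.3% of all peaks, and 66 of the 671 distal ones (9.84%) were memory peaks, beside the 8.61% of all distal peaks. Over distal and promoter peaks together, the share was 17.2% (11 of 64) for cytotoxic and secreted factors, 13.9% (10 of 72) for cytokine receptors, 10.9% (11 of 101) for inhibitory and costimulatory receptors and 10.8% (18 of 167) for transcription factors. It was 8.43% (7 of 83) for homing and adhesion genes, 7.39% (13 of 176) for signalling and survival genes and 5.51% (7 of 127) for naive and stem-like genes, and none of the 21 peaks nearest to NK-type receptors was a memory peak. Among distal peaks alone the shares were 19.6% for cytotoxic and secreted factors, 12.7% for transcription factors, 10.98% for inhibitory and costimulatory receptors, 9.09% for homing and adhesion genes, 8.77% for cytokine receptors, 8.22% for signalling and survival genes and 6.03% for naive and stem-like genes. Members of these lists are named by their level in S+P C4, the group outside the choice.

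The transcription factor list is given first. Bhlhe40 had a memory peak in the intergenic DNA 12.7 kb from its start (chr6:108648758-108649913), with 16.5 to 39.8 normalised counts over the 9 unsensitized libraries. The same peak had 636, 619, 150.2 and 263 in Sensitized, 112, 650.3, 1007 and 889 in S+P C4, counts of 445, 661, 484 and 608 in S+P C5 and counts of 771, 849.5, 1065 and 1128 in S+P C7. All 16 sensitized libraries lay above all unsensitized ones, the lowest being S+P C4 replicate 1 and Sensitized replicate 3. An intronic peak of Stat4 (chr1:52073857-52075047), which encodes the signal transducer of interleukin 12, had 59.2 to 150.3 in unsensitized libraries and 896, 649.7, 238 and 324 in Sensitized. Its S+P C4 counts were 218, 493, 795 and 599, its S+P C5 counts 619, 992, 931 and 707 and its S+P C7 counts 666, 866, 1007 and 709. The peak of this list with the highest S+P C4 level lay within 1000 bp of an annotated start of Nfil3 (chr13:53134125-53136201), with 603 to 707 in Naive, 665 to 758 in Sensitized and 656 to 781 in S+P C4. Its counts were 818 to 1067 in S+P C5, above all Sensitized libraries, and 715 to 897 in S+P C7.

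Peaks near secreted factors come next. A peak 26.0 kb from Il10 (chr1:130920960-130922266), the gene of an immunoregulatory cytokine, had 68.9 to 193 counts in unsensitized libraries. It had 1050, 1060, 368 and 448 in Sensitized, 272, 584, 908 and 636 in S+P C4, counts of 856, 1197, 1121 and 949 in S+P C5 and counts of 1029, 1328, 1309 and 999.9 in S+P C7. The peak 5.8 kb from Lgals3 (chr14:47598831-47599897), which encodes galectin-3, had 43.1 to 83 in unsensitized and 714, 841, 236 and 342 in Sensitized libraries. In both peaks Sensitized replicates 3 and 4 were the lowest of their group yet above each unsensitized library. Near Xcl1 (chr1:164793276-164794465), a chemokine that attracts cross-presenting dendritic cells, the counts were 242 to 358 in unsensitized libraries, 911, 1159, 486 and 543 in Sensitized and 473, 613, 658 and 630.0 in S+P C4.

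Receptor genes were mixed. The Cd47 peak 170 kb from its start (chr16:49789952-49791648) had 49 to 146 counts in unsensitized libraries, 1246, 1430, 384 and 515 in Sensitized and 374, 892, 1282 and 946 in S+P C4. The Il12rb2 peak 23.7 kb from its start (chr6:67376412-67377243), near the gene of an interleukin 12 receptor chain, had 118 to 276 in unsensitized libraries and 970.2, 1088, 399.6 and 499 in Sensitized, with 453, 687, 1010 and 769.5 in S+P C4. In both, every sensitized library lay above every unsensitized one. By contrast, the Tgfbr2 promoter peak (chr9:116003538-116005252, a TGF-beta receptor) had 645 to 805 in Naive and 699 to 793 in Sensitized libraries, and the Il17ra promoter peak (chr6:120440026-120441314) 494 to 564 and 468 to 606. An intronic peak of Tnfrsf8 (chr4:145026494-145027324, CD30) had 258 to 319.9 and 347 to 729.7. The peak at an annotated transcript start within Tnfrsf9 (chr4:151008196-151010573), the gene of the costimulatory receptor 4-1BB, was the most accessible memory peak in S+P C4, with 1051, 1390, 1572 and 1409, followed by an intergenic peak nearest to Pkdcc (chr17:83583386-83586600, 1184 to 1454).

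Among adhesion genes, the peak 135 kb from Itgb1 (chr8:129275766-129277064), the beta-1 integrin chain of memory cells, had 18.8 to 159.9 counts in unsensitized libraries, 1041, 1018, 302 and 402 in Sensitized and 272, 809, 1134 and 904 in S+P C4. An intronic peak of Gna15 nearest to S1pr4 (chr10:81346067-81346560), a sphingosine phosphate receptor, had 84 to 149.5 in unsensitized and 198 to 584 in Sensitized libraries, and the Itgal promoter peak (chr7:126895004-126895704) 228 to 331 and 259.8 to 427. The distal peaks kept the 2 kinds of library apart and the Itgal promoter did not. In the signalling list, the peak 58.3 kb from Rgs1 (chr1:144181907-144184639) lay above the unsensitized range of 339.6 to 554 in every Sensitized library (1088, 1479, 682 and 929.6). The Dusp2 peak (chr2:127159880-127161826; Naive 797 to 1087, Sensitized 691 to 1180) and the Rasgrp1 peak (chr2:117220162-117221386; 438 to 726 and 573 to 1257) overlapped between these groups.

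Peaks nearest to genes of naive and stem-like cells included one that ran the other way. The peak 306 kb from Klf3 (chr5:64653981-64654739), a repressor linked to T cell quiescence, had 1014, 897 and 971 counts in Naive, 492, 574, 826 and 750.1 in Sensitized and 667, 702, 528 and 484 in S+P C4. It had 494, 461, 498 and 396 in S+P C5 and counts of 495, 299.6, 441 and 355 in S+P C7, so each sensitized library was below each Naive one although no unsensitized list held the peak. The N+P libraries (742 to 936) overlapped Sensitized replicates 3 and 4. The Ets1 peak 425 kb from its start (chr9:32971582-32972585) had 260.0 to 398 in unsensitized libraries, 929.9, 795, 481 and 491 in Sensitized and 398, 679, 862 and 802 in S+P C4. The S1pr1 peak (chr3:115485775-115486619, an egress receptor) had 189.5 to 299 and 257 to 511.

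**Figure D3:**
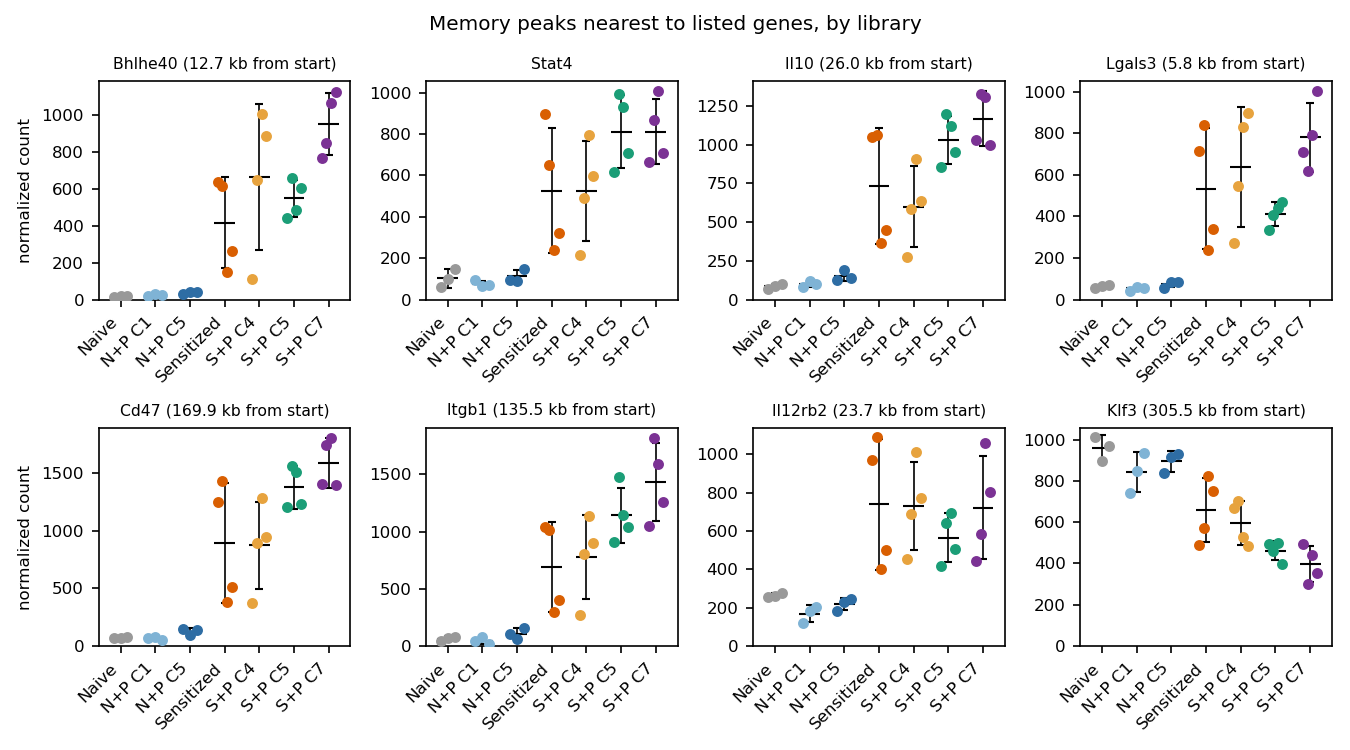
Normalised read count (y axis, from 0) of 8 memory peaks nearest to listed genes in each of 25 libraries. Points are libraries, horizontal lines group means and bars 1 SD. Counts near Bhlhe40, Stat4, Il10, Lgals3, Cd47 and Itgb1 are low in the 9 unsensitized libraries and split within Sensitized, whereas the Klf3 peak is highest in Naive.

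The first tested question was whether the memory peaks differed between the PD1+ post-partum subsets and Sensitized cells. The labels give no PD1 or CD73 gate for Sensitized libraries. The post-partum mice were mated weeks after the graft, about when the Sensitized mice were taken. Pregnancy, sort gate and time since the graft thus change together here and cannot be told apart. A peak was called at a DESeq2 adjusted p under 0.1, over all 13527 peaks, with an absolute log2 fold change over 0.9. In S+P C5 against Sensitized, 8 of the 731 memory peaks (1.09%) were higher, beside 3.08% of all peaks, and none was lower, beside 3.67% of all peaks. At an unadjusted p under 0.05, 182 memory peaks differed (24.9%, beside 37.7% of all peaks), and edgeR called 8 higher and none lower. In S+P C7 against Sensitized, 38 (5.20%) were higher, beside 3.84% of all peaks, and none was lower, beside 8.03%. There 296 differed at an unadjusted p under 0.05 (40.5%, beside 52.4% of all peaks), and edgeR called 37 higher and none lower. The choice used the lists of these 3 groups, so a peak that had been lost from S+P C5 or S+P C7 would seldom be a memory peak, and the counts are read only against the share of all peaks.

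Both comparisons share the Sensitized libraries, and the calls depended on them. Replicates 3 and 4 were singled out by their low level in these peaks, so leaving them out favours lower calls. Without Sensitized replicates 3 and 4, S+P C5 had 2 memory peaks higher (2.16% of all peaks were) and 12 lower (1.09% of all peaks), and S+P C7 had 5 higher (2.03% of all peaks) and 3 lower (4.93% of all peaks). At an unadjusted p under 0.05 there were then 158 for S+P C5 (21.6%, beside 20.0% of all peaks) and 167 for S+P C7 (22.8%, beside 31.9%). Of the 8 and 38 peaks called with all libraries, 1 and 5 remained. The 2 that were higher in S+P C5 lay near Ptprn2 and Hspa13, and the 5 in S+P C7 near Ptprn2, Hspa13, Cmip, Setbp1 and Eps8l3. The 12 lower in S+P C5 lay near Uts2, Gsx1, Il12rb2, Kcnj8, Eed, N4bp1, E030025P04Rik, F2rl2, Snx18, Lgals3, Egr3 and Cd47. The 3 lower in S+P C7 lay near Rbpj, Abhd16b and Bhlhe40. The peaks near Ptprn2, Cmip, Kcnj8 and Lgals3 were named by rule, and the others are named after their values were seen.

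The peak 18.4 kb from Ptprn2, which encodes a receptor-type phosphatase family protein (chr12:116430562-116431177, intergenic), had the smallest adjusted p in both comparisons. Its counts were 262, 268, 256 and 244 in Sensitized, 550.3, 623, 419.5 and 463 in S+P C5 and counts of 706, 747, 815 and 735 in S+P C7. The groups did not overlap, and the 4 Sensitized libraries were alike here, near the 187 to 273 of unsensitized libraries. It rose in S+P C5 (log2 fold change 0.99, SE 0.15, DESeq2 adjusted p = 2.41e-09) and in S+P C7 (log2 fold change 1.54, SE 0.15, DESeq2 adjusted p = 1.73e-22), and S+P C4 had 289, 329.7, 519 and 441. Its window held both an AP-1 and a RUNX string, as shown above. An intronic peak of Cmip (chr8:118048647-118049371), which encodes the c-Maf-inducing protein, had 236, 246, 318 and 300.5 in Sensitized and 628, 689, 605 and 607 in S+P C7 (log2 fold change 1.198, SE 0.15, DESeq2 adjusted p = 1.18e-12).

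A peak in an intron of Prr5l, 77.9 kb from the start of Traf6, a ubiquitin ligase of NF-kB signalling (chr2:101585711-101587099), was the second for S+P C5. Its counts were 569.9, 652, 289.5 and 347 in Sensitized and 821, 1316, 884 and 919 in S+P C5 (log2 fold change 1.08, SE 0.22, DESeq2 adjusted p = 2.65e-05). Sensitized replicates 3 and 4 were the lowest, and without them the log2 fold change was 0.69 and no longer past the fold threshold. The listed genes with a memory peak called higher in S+P C7 were Eomes (2 peaks), Bhlhe40, Arid5b, Il17ra, Il6st and Itgb1, and in S+P C5 it was Eomes. None of these peaks was called higher without Sensitized replicates 3 and 4. Eomes is the T-box factor of memory and exhausted cells. Its peak 61.8 kb from the start (chr9:118245047-118245962) had mean counts of 322 in Sensitized, 612 in S+P C5 (log2 fold change 0.92, SE 0.33, DESeq2 adjusted p = 0.0273) and 731 in S+P C7 (1.18, SE 0.33, DESeq2 adjusted p = 0.00154), and it was not called in either without Sensitized replicates 3 and 4.

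**Figure D4:**
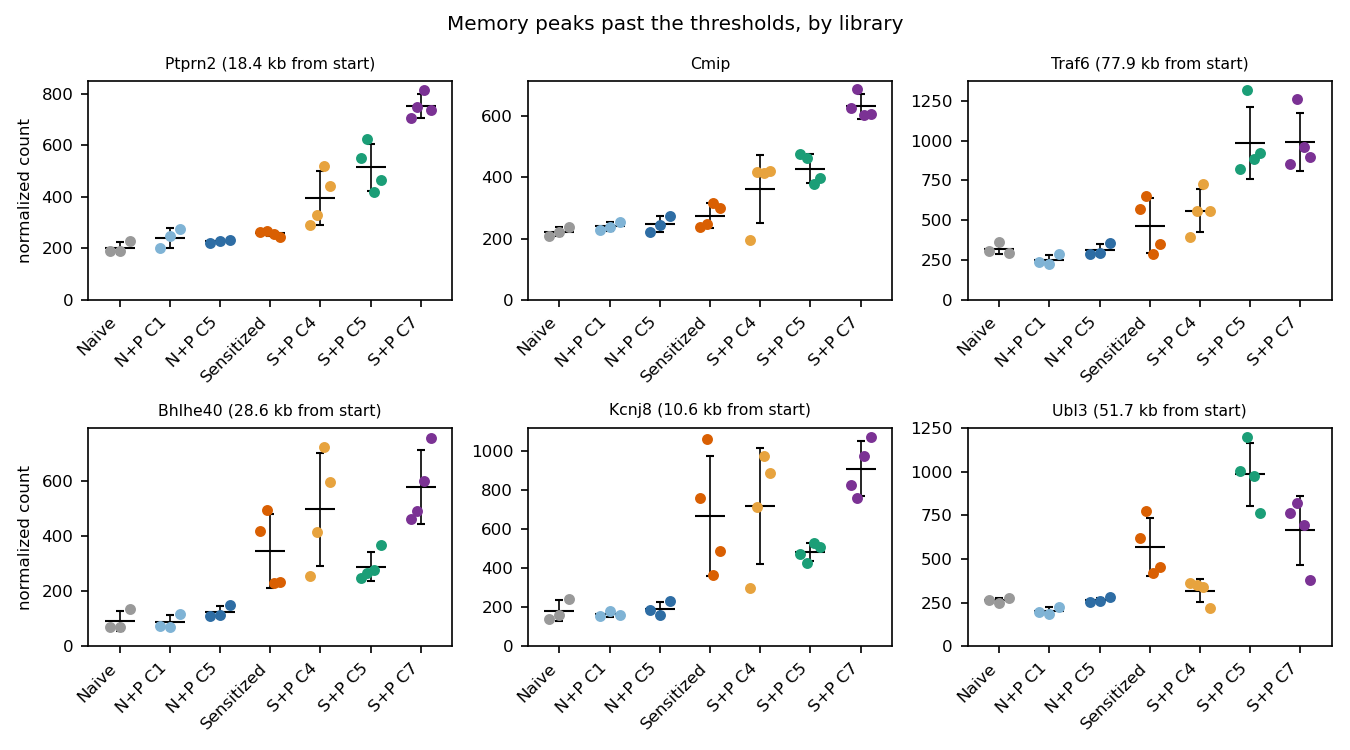
Normalised read count (y axis, from 0) of 6 memory peaks past the thresholds of a comparison, in each of 25 libraries. Points are libraries, horizontal lines group means and bars 1 SD. The Ptprn2 and Cmip peaks are near the unsensitized level in the 4 Sensitized libraries and highest in S+P C7, and the Ubl3 peak is low in S+P C4.

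The PD1- subset of post-partum memory cells was compared with Sensitized cells next. No memory peak was called in S+P C4 against Sensitized, beside 0.858% of all peaks in either direction. At an unadjusted p under 0.05, 104 memory peaks differed (14.2%, beside 18.7% of all peaks), and edgeR called none. Without Sensitized replicates 3 and 4, none was higher (0.924% of all peaks were) and 29 were lower (1.38% of all peaks), with 218 at an unadjusted p under 0.05 (29.8%, beside 16.3% of all peaks). Leaving out the Sensitized libraries that are lowest in these peaks itself favours lower calls. The direction turned with the library left out: 5 were higher and 1 lower without Sensitized replicate 1, and none was higher and 6 were lower without Sensitized replicate 3. The 29 lower peaks without replicates 3 and 4 included peaks near Cxcr3, Cd44, Tent5c, Ubl3, Hopx and Il10, named after their values were seen. The choice required a listed peak in Sensitized and asked nothing of S+P C4, which favours lower counts in S+P C4.

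Within post-partum cells, the PD1+ subsets were compared by CD73. S+P C7 had 3 memory peaks higher than S+P C5 (0.410%, beside 0.266% of all peaks) and none lower (beside 2.11% of all peaks), with 119 at an unadjusted p under 0.05 (16.3%, beside 18.4% of all peaks) and 2 higher by edgeR. They lay near Bhlhe40, Kcnj8 and Lgals3. The Bhlhe40 peak 28.6 kb from its start (chr6:108607659-108608400) had 248, 263, 275 and 366 in S+P C5 and counts of 461, 489, 598 and 755 in S+P C7 (log2 fold change 1.00, SE 0.30, DESeq2 adjusted p = 0.0202). The peak near Kcnj8, a potassium channel subunit (chr6:142506761-142507672), had 474, 426, 528 and 508 against 828, 763, 978 and 1073 (log2 fold change 0.91, SE 0.29, DESeq2 adjusted p = 0.0302). The Lgals3 peak shown above had 334, 407, 439.7 and 469 against 708, 616, 794 and 1001 (log2 fold change 0.92, SE 0.32, DESeq2 adjusted p = 0.065). In all 3 the groups did not overlap, but the Kcnj8 call was lost in 6 of 17 alternative settings. The S+P C4 libraries ran from 255 to 723 in the Bhlhe40 peak, 299 to 976 in the Kcnj8 peak and 272 to 899 in the Lgals3 peak, and overlapped both groups in each.

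The PD1+CD73+ subset was then set against the PD1- subset. In S+P C5 against S+P C4, 18 memory peaks were higher (2.46%, beside 3.12% of all peaks) and 1 was lower (0.137%, beside 2.00% of all peaks). Here too the choice required a listed peak in S+P C5 and asked nothing of S+P C4, which favours this direction. An intergenic peak 51.7 kb from Ubl3 (chr5:148437607-148438897), a ubiquitin-like membrane protein, had 361, 353, 337 and 219 in S+P C4 and counts of 1006, 1200, 976 and 761 in S+P C5 (log2 fold change 1.65, SE 0.22, DESeq2 adjusted p = 3.67e-11). An intronic peak of Cables1 had 490.0, 353, 439.9 and 276 in S+P C4, against 1151, 1254, 1214 and 851 in S+P C5 (log2 fold change 1.53, SE 0.28, DESeq2 adjusted p = 4.02e-06). Peaks near Cd44 and Cxcr3, genes of memory T cell adhesion and migration, were also higher, with log2 fold changes of 1.00 (SE 0.34, DESeq2 adjusted p = 0.0381) and 1.00 (SE 0.30, DESeq2 adjusted p = 0.0125). The 1 lower peak was the Il12rb2 promoter (chr6:67352778-67353577), with a mean of 249 in S+P C5 against 539 in S+P C4 (log2 fold change -1.12, SE 0.29, DESeq2 adjusted p = 0.00323).

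The comparisons without sensitization asked whether these regions differed between N+P and Naive cells, or between the N+P subsets. The members had been chosen as unlisted in all 3 groups. Against Naive, pregnancy and the sort gate change together and cannot be told apart. No memory peak was called in N+P C5 against Naive (0.0262% of 3824 peaks tested), in N+P C1 against Naive (0.0205% of 4873) or in N+P C5 against N+P C1 (0% of 13527). At an unadjusted p under 0.05, 66 memory peaks differed in N+P C5 against Naive (9.03%, beside 17.5% of all peaks) and 118 in N+P C1 against Naive (16.1%, beside 19.0%). Of these, 25 were higher and 41 lower in N+P C5, and 7 were higher and 111 lower in N+P C1. In N+P C5 against N+P C1 there were 56 (7.66%, beside 2.28% of all peaks), all 56 higher in N+P C5. By edgeR none was called in any of the 3. DESeq2's filter on low means left 28 and 51 memory peaks in the tests against Naive. With that filter off, 1 memory peak, nearest to Il10, was called in N+P C5 (0.177% of all peaks) and 10 in N+P C1, all lower (0.288% of all peaks). With the replicate number as a block, 2 memory peaks, near Agtr1b and Adh4, were higher in N+P C5 than in N+P C1 (0.0148% of all peaks).

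The last test asked whether the change from unmated to post-partum C5 cells differed between sensitized and naive mice, as the difference of the S+P C5 minus Sensitized and N+P C5 minus Naive log2 changes. The lists of all these groups took part in the choice, so a peak that changed much within either pair would seldom be a memory peak. The counts are therefore read only against the share of all peaks. The difference was higher in 16 memory peaks (2.19%, beside 3.04% of all peaks) and lower in 3 (0.410%, beside 2.93%), which lay near Il10, Crot and Arap2. This split moved with the scaling: loess offsets gave 9 higher and 8 lower, shared-peak factors 33 and 1, and total counts 27 and 2. The peak at the Elapor1 start, which also lies in Cfap276 (chr3:108443702-108444479), had 429.8, 359.9 and 319 in Naive, 298, 354 and 366 in N+P C5, 306, 359, 374 and 360.1 in Sensitized and 562, 710.2, 670.0 and 497 in S+P C5. Of these 4 groups S+P C5 stood apart (difference 0.92 on the log2 scale, SE 0.24, DESeq2 adjusted p = 0.00452). For the Traf6 peak the Naive counts were 306, 362 and 294 and the N+P C5 counts 287, 293 and 355, and the difference was 1.12 (SE 0.34, DESeq2 adjusted p = 0.0142). Without Sensitized replicates 3 and 4, 2 memory peaks were higher (Elapor1 and Rnf157, 1.40% of all peaks) and 14 lower (0.954% of all peaks). Leaving out these libraries, which are low in the memory peaks, favours lower values of this difference.

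**Figure D5:**
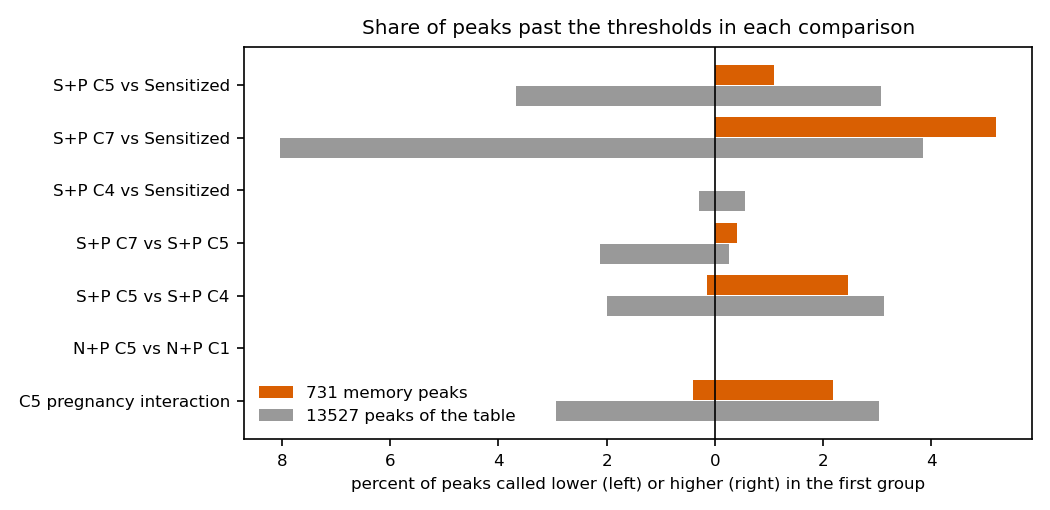
Percent of the 731 memory peaks and of all 13527 peaks called lower (left of 0) or higher (right of 0) in the first group of each comparison drawn. The comparisons of N+P C5 and N+P C1 with Naive are not drawn. The bottom bars are the difference of the C5 change after pregnancy between sensitized and naive mice. Against Sensitized cells no memory peak is called lower in S+P C5 or S+P C7, beside 3.67% and 8.03% of all peaks, and the choice of members favours this.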

How the data were processed

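ATAC-seq was measured in 25 libraries of sorted CD8+ T cells. The authors trimmed reads with cutadapt 3.4, aligned them to GRCm39 with Bowtie2 2.2.9, removed duplicates with Picard 2.21.8, called peaks per library with Genrich 0.6.1 in its ATAC mode and combined replicates with ChIP-R. Raw read counts over 13527 merged peaks were deposited as whole numbers, so size factors and depth could be computed. Each deposited group list holds a ChIP-R score, a signal value and a q-value per peak, all of pooled replicates, so the lists have no replicate error.

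The 731 memory peaks were taken by overlap with these lists. Members and gene lists were chosen with earlier results of these data known. Counts were fitted in DESeq2 1.42.0 (R 4.3.3), the study's tool, in 1 model with a mean per group over all 25 libraries, with median-of-ratios factors and Wald tests adjusted by Benjamini-Hochberg over all peaks tested. A peak was called where its adjusted p was below 0.1 and its log2 fold change exceeded 0.9 in either direction. The model was tested on simulated counts. Alternatives were edgeR 4.0.16 quasi-likelihood tests, total-count, shared-peak and loess (limma 3.58.1) scaling, a minimum of 100 counts in 3 libraries, a stricter adjusted p of 0.05, the independent filter off, fits to the contrasted groups, the replicate number as a block and leaving out libraries. Levels were put on a log2(count + 1) scale.

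Named peaks were, for each comparison and direction, the 2 with the smallest adjusted p among called members whose groups did not overlap, for each gene list up to 3 members (1 a gene) with the highest S+P C4 level, the 3 highest members in S+P C4, and those at the edge of the rule, with the 5 genes nearest to the most members. Of these, 2 peaks are not reported here. Other genes were named after their values were seen. Per the study's methods, cell suspensions came from individual mice. Replicates differed by more than sampling noise, the closest pair at a chi-square of 2.81 per degree of freedom. Same-numbered post-partum libraries deviated together (correlations of 0.108 to 0.400 for N+P C1 and C5, 0.103 to 0.572 for S+P C4 and C5, 0.522 to 0.771 for S+P C5 and C7), so the numbers were taken to pair these samples. For S+P C4 and C7, which were not compared, they were 0.0639 to 0.666, and libraries of different numbers reached 0.440 for S+P C4 and C5. The main fit did not use this pairing in any comparison of subsets, and only the alternative with a replicate block did. Coordinates are 1-based, with GENCODE vM39 genes.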

Additional observations from a re-analysis of the deposited data

Results flagged for a closer look

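Of 136 groups of 4 libraries examined, 3 held a library far from the other 3, and chance alone would give about 1 in 20. The Ubl3 peak had 218.7 normalised counts in S+P C4 replicate 4, below the 336.7 to 360.7 of the other 3 libraries. The Cmip peak had 194 in S+P C4 replicate 1, the library of lowest depth, beside 413.1 to 420.2 in the other 3. The memory-peak index was -1.137 in S+P C7 replicate 1, beside values of -1.02 or above in the others.

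The peaks named for the difference of the C5 changes between sensitized and naive mice were picked as called in that test (DESeq2 interaction term). That they differed was thus fixed by the choice. Among the memory peaks 2.19% were called higher and 0.410% lower, beside 3.04% and 2.93% of all peaks. The difference was 0.916 on the log2 scale for the Elapor1 peak (DESeq2 adjusted p = 0.00452) and 1.124 for the Traf6 peak (DESeq2 adjusted p = 0.0142). Without Sensitized replicates 3 and 4 the Traf6 difference was 0.73 and no longer past the threshold (DESeq2 adjusted p = 0.127). The causes were not tested.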

How the results depend on the processing

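For the named peaks, 166 settings kept direction and call and 16 lost the call, none turned direction. The Kcnj8 call was lost in 6 of 17 settings and the Elapor1 call in 6 of 23, the Ptprn2 call in S+P C5 when replicate 2 of that group was left out (0.90), the Bhlhe40 call without S+P C7 replicate 4 (0.84) and the Traf6 call without Sensitized replicates 3 and 4 (0.69).

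Without 1 replicate at a time, the memory peaks called numbered 2 to 29 for S+P C5 and 16 to 93 for S+P C7 against Sensitized, the highest both without Sensitized replicate 1 and the lowest without S+P C5 replicate 2 and Sensitized replicate 3. They numbered 0 to 6 for S+P C4 against Sensitized (5 higher and 1 lower without Sensitized replicate 1, 6 lower without replicate 3), 0 to 8 for S+P C7 against S+P C5 (the fewest when S+P C7 replicate 4, the most when replicate 1 of that group was left out) and 11 to 32 for S+P C5 against S+P C4 (without S+P C5 replicate 2 and S+P C4 replicate 3). They numbered 0 to 12 for N+P C5 and 0 to 20 for N+P C1 against Naive (the highest without Naive replicate 3), 0 for N+P C5 against N+P C1, and 6 to 65 for the difference of the C5 changes (without Naive replicate 2 and Sensitized replicate 1). Without Sensitized replicates 3 and 4 together, 14, 8 and 29 were called in S+P C5, S+P C7 and S+P C4.

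Loess scaling gave 1 for S+P C4 against Sensitized, and index means of -2.03 in N+P C1, -1.92 in N+P C5, -1.25 and -1.12 in the C5 and C7 subsets of Sensitized+Pregnancy cells. Shared-peak scaling gave 1 for S+P C7 against S+P C5, 13 for N+P C1 against Naive and 34 for the difference of the C5 changes. Total-count scaling gave 1 for N+P C5 and 14 for N+P C1 against Naive and 29 for the difference. With the filter off, N+P C5 and N+P C1 had 1 and 10 against Naive, and in fits to the contrasted groups 5 and 17, with 4 for N+P C5 against N+P C1. An adjusted p under 0.05 left 12 for the difference. With the replicate block, 2 were called in N+P C5 against N+P C1, and the block changed no other call of a named peak. The causes were not tested. A q-value under 0.05 in the 3 listed groups left 1 member, near Sycp3, and requiring the S+P C4 list left 58. In the central 300 bp, AP-1 was in 22.8% of distal memory peaks and 15.3% of other distal peaks, RUNX in 50.8% and 39.6%, T-box in 24.6% and 20.5% (overlapping intervals) and TCF/LEF in 19.4% and 26.1%.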
